A study of Mus musculus with 6 samples.

Results

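Bone morphogenetic protein (BMP) ligands, a secreted BMP antagonist and the genes that answer to BMP signalling were examined in arthritic synovial fibroblasts (SFs), the mesenchymal cells of the joint lining. The set was chosen with earlier results of these data known and was taken by gene name. It held 9 genes out of the 49548 in the expression table, namely the ligands Bmp2 and Bmp4, the antagonist Grem1, the inhibitory SMADs Smad6 and Smad7, and the inhibitor of DNA binding genes Id1, Id2, Id3 and Id4. All 9 were listed in the table and all 9 passed the filter on low values, meaning that 3 or more of the 6 libraries reached a normalised count of 10. Bmp2 passed it through its untreated libraries alone.

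SFs of both groups were cultured from the ankle joints of hTNFtg mice, a strain that expresses human TNF from a transgene and develops chronic polyarthritis. According to the methods the mice were 8 weeks old and on a CBA C57BL/6J background, and cells carrying the leukocyte antigen CD45 were depleted from the cultures at passage 1. One group of 3 libraries is labelled as without treatment (the methods speak of vehicle), and the other 3 came from cells given 500 μM amisulpride, an antipsychotic and dopamine receptor antagonist, for 48 hours. RNA was sequenced from the 3′ ends of transcripts, and values are normalised counts, which are read counts divided by a factor per library and rounded. The methods call the replicates biological without saying whether each was a separate animal or culture, so p-values measure the spread between these libraries.

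BMPs are secreted dimers that bring together type I and type II receptors on the cell surface. The receptors phosphorylate SMAD1, SMAD5 and SMAD9, which enter the nucleus with SMAD4. Antagonists such as gremlin hold the ligand outside the cell, whereas SMAD6 and SMAD7 are made in response to the signal and dampen it. ID proteins are classical targets of the pathway. They lack a DNA-binding region and pair with basic helix-loop-helix (bHLH) factors, which keeps those factors from binding DNA. In the joint the pathway is known for its roles in cartilage, bone and the specification of synovial tissue.

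Libraries held approximately 2.52 to 4.71 M reads, with untreated replicate 1 uncertain and amisulpride replicate 3 the shallowest. A count of 0 allows up to 3 reads, or 2.50 to 5.37 normalised counts depending on the library. Amisulpride replicate 3 stood apart from the rest, at 73.9 on a first principal component (37.1% of the variance) where the other libraries lay between -38.2 and 10.4. All 12 fibroblast markers were above the floor in every library, as the labelled cell type would have them. Myeloid markers were also present, with 9 to 10 of 10 above the floor, summing to 2264 to 3923 normalised counts in untreated and 2076 to 3953 in treated libraries, mostly from the lysozyme gene Lyz2.

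Under amisulpride Bmp2 fell to the edge of detection and Bmp4 and Id4 rose by slightly more than 1 log2 unit, whereas Grem1, Id1, Id2, Id3, Smad6 and Smad7 did not pass the test. A gene passed, by the thresholds of the study, when its log2 fold change reached 1 in either direction and its unadjusted p lay under 0.05, here from limma on log2(normalised count + 1). In bulk RNA, fewer cells of a type and less RNA per cell cannot be told apart. By these thresholds, 2 of the 9 genes were higher, against 2.69% of all 12614 genes tested, and 1 was lower, against 3.01%. The 9 genes were chosen with earlier results of these data known, and the lower one, Bmp2, passed the filter through its untreated libraries alone. These shares therefore describe the set and do not test it. None of the 9 had an adjusted p under 0.05 in the main limma fit, a level that 0.285% of all genes reached. In alternative limma fits Bmp2 did with the replicate number as a block (0.0142), library weights (0.0123) or no variance trend (0.0439). It also did with a pseudocount of 5 (0.0401), no filter (0.0487) or without amisulpride replicate 3 (0.0192). In the other alternatives its adjusted p was 0.0582 to 0.383. Id4 was under 0.05 with library weights (0.0356). An unadjusted p under 0.05 was found for 3 of the 9 and for 10.9% of all genes. The same 3 genes had treated libraries that did not overlap with the untreated ones, which was the case for 16.5% of all genes. The median log2 fold change was 0.32 over the 9 genes and 0.00 over all genes tested.

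**Figure D1:**
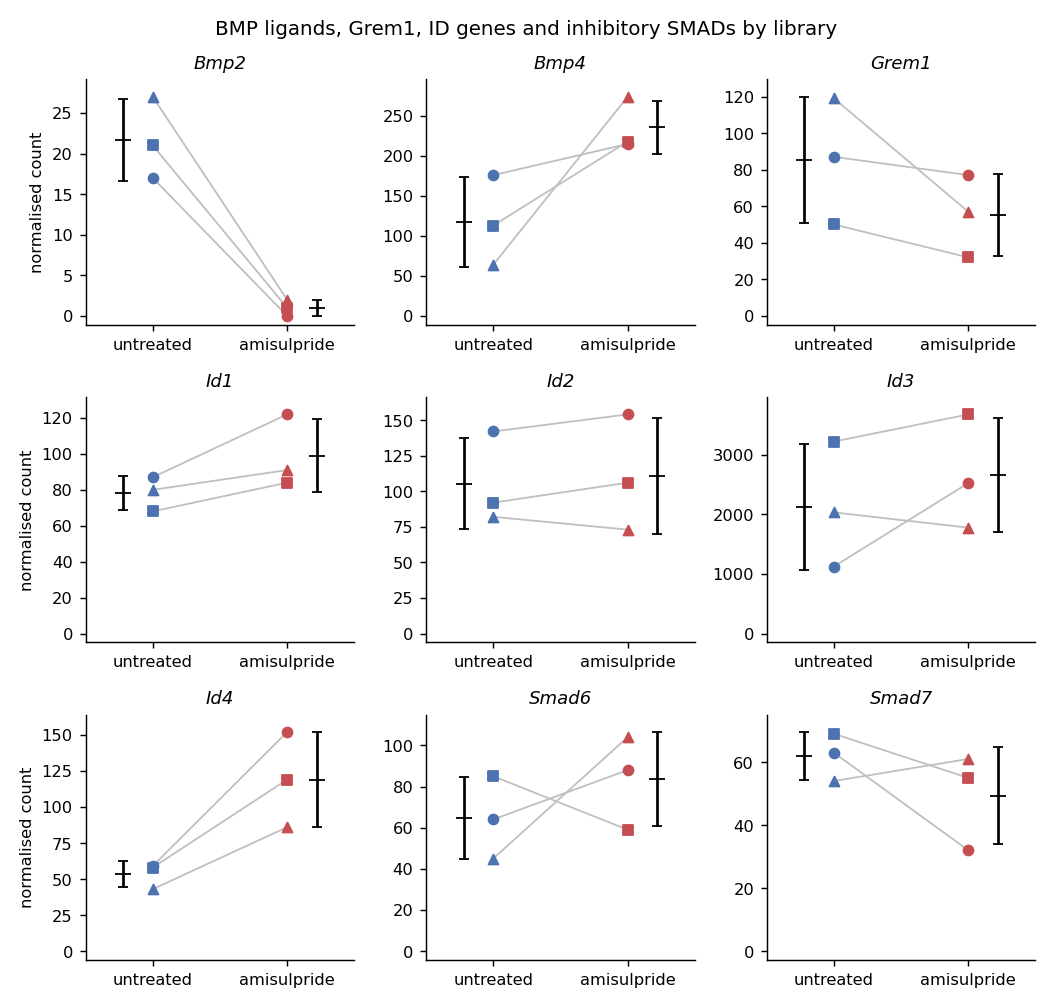
Normalised counts of the 9 genes in each library, with untreated libraries in blue on the left and amisulpride libraries in red on the right of each panel. Circles, squares and triangles mark replicates 1, 2 and 3, grey lines join libraries with the same replicate number, and black bars give the mean ± SD (n = 3). Bmp2 dropped from 17 to 27 normalised counts to 2 or fewer, and Bmp4 and Id4 lay higher in every treated library than in any untreated one.

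Of the ligands, Bmp2, a bone-inducing BMP, showed the widest separation of groups. Bmp2 (ENSMUSG00000027358, mm10 chr2:133552159-133562885, plus strand) stood at 17, 21 and 27 normalised counts in the untreated libraries and at 0, 1 and 2 in the treated ones. All 3 treated values lay at or under the floor of 3 reads. Its log2 fold change was -3.62 ± 0.71 (SE, n = 3 per group; 95% interval -5.18 to -2.06), with a limma p of 0.000319 and an adjusted p of 0.0646. Expressed in approximate reads, these values were 17, 20 and 32 against 0, 1 and 1, or 69 reads against 2. After division by the depth of each group, the untreated libraries held 26.5 times as many Bmp2 reads, with an exact 95% interval of 7.07 to 223 that covers counting error only and takes the estimated depths as given. With so few reads the fitted fold change depends on the pseudocount, and it was -2.15 with 5 in place of 1. Since Bmp2 entered the test through its high untreated libraries alone, its place among the genes that passed is given as a description, and with no filter on low values its adjusted p was 0.0487.

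Bmp4, a close relative of Bmp2, moved the other way. Bmp4 (ENSMUSG00000021835, chr14:46383520-46390669, minus strand) measured 176, 113 and 64 normalised counts without treatment and 215, 218 and 274 with it. Even the lowest treated library was above the highest untreated one, but the untreated libraries were spread over a wide range. The estimate was a log2 fold change of 1.10 ± 0.35 (SE, n = 3 per group; 95% interval 0.34 to 1.87), with a limma p of 0.00852 and an adjusted p of 0.243. The rise was uneven between libraries of the same number, with log2 differences of 0.29, 0.94 and 2.08 for numbers 1, 2 and 3. When untreated replicate 3 was left out the change was 0.73, and when amisulpride replicate 3 was left out it was 0.99, both under the threshold. An antisense gene on the opposite strand, Gm15222, overlaps Bmp4 and measured 10, 9 and 7 against 22, 31 and 14, and whether reads were counted by strand was not stated, so reads of the pair cannot be told apart. The 250 bases upstream of the Bmp4 start are shown because Bmp4 is one of the 2 genes of the set that were higher (RefSeq, GRCm38.p6, chr14:46390670-46390919, minus strand, 5′ to 3′). Neither motif searched below occurs in them.
Bmp4: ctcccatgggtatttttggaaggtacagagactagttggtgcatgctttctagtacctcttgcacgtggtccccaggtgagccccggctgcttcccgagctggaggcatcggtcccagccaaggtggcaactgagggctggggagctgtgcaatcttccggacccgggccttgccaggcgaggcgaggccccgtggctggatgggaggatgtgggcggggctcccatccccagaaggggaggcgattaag

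No other BMP ligand passed. Of 13 further ligands of the family only 2 were measured above the filter, Bmp5 at 9, 27 and 12 against 9, 28 and 21 normalised counts and Gdf6 at 21, 11 and 23 against 12, 7 and 14. Their log2 fold changes were 0.27 ± 0.56 and -0.67 ± 0.50 (SE, n = 3 per group). Both genes encode ligands of the BMP and growth differentiation factor family with roles in skeletal and joint development. Bmp6, chosen here after its values were seen, was under the filter at 8, 7 and 6 against 9, 17 and 21. Bmp7, Bmp8b, Bmp10, Gdf2, Gdf7 and Gdf10 were at 0 in all 6 libraries.

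Grem1 encodes gremlin 1, which binds BMP2 and BMP4 and keeps them from their receptors. Grem1 (ENSMUSG00000074934, chr2:113746164-113758646, minus strand) had 87, 50 and 119 normalised counts in untreated and 77, 32 and 57 in treated libraries. The groups overlapped, although each treated library was lower than the untreated one of its number. Its log2 fold change of -0.62 ± 0.40 (SE, n = 3 per group; 95% interval -1.50 to 0.27) did not pass, with a limma p of 0.155, or 0.0639 with the replicate block. With 1 library left out it lay between -0.95 (without untreated replicate 2, limma p 0.0475) and -0.27 (without amisulpride replicate 2). The interval leaves room for a fall past the threshold as well as for a small rise.

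Among the 16 antagonists listed beside Grem1, 11 were tested (median log2 fold change 0.22). Of these 1 was higher, against 2.69% of all genes tested, 0 were lower, against 3.01%, and 10 did not pass. The one that was higher was Fst, which encodes follistatin, a secreted binder of activins and some BMPs. Fst had 105, 250 and 108 normalised counts against 181, 371 and 415. The groups overlapped, since untreated replicate 2 lay above amisulpride replicate 1. Follistatin mRNA had a log2 fold change of 1.09 ± 0.40 (SE, n = 3 per group), with a limma p of 0.019 and an adjusted p of 0.326, and it no longer passed in 5 of the 13 alternatives tried. These were library weights (0.92) and the fits without untreated replicate 1 (0.88), untreated replicate 3 (0.90), amisulpride replicate 2 (0.95) or amisulpride replicate 3 (0.87).

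The other antagonists with the highest means did not pass. The log2 fold change was 0.00 for Fstl1, a secreted follistatin-like protein, 0.41 for Nbl1, a relative of gremlin, and 0.33 for Bmper, a BMP-binding extracellular protein. Chosen after its values were seen, Bambi encodes a receptor without a kinase that blunts BMP and TGF-β signals. Its normalised counts were 4, 14 and 8 against 16, 37 and 13, a log2 fold change of 1.25 ± 0.59 (SE, n = 3 per group) with a limma p of 0.0574, or 0.0293 with the replicate block. Crim1, a membrane protein that binds BMPs and was chosen in the same way, had 82, 57 and 89 against 110, 92 and 100. Its groups did not overlap, but the log2 fold change of 0.42 ± 0.28 (SE, n = 3 per group) did not pass. The remaining 5 tested antagonists, Chrd, Chrdl1, Dand5, Fstl3 and Twsg1, did not pass either, with log2 fold changes between -0.96 (Dand5) and 0.22 (Chrdl1). Noggin (Nog), a strong BMP inhibitor also named after its values were seen, was under the filter at 4, 1 and 2 against 1, 0 and 0.

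**Figure D2:**
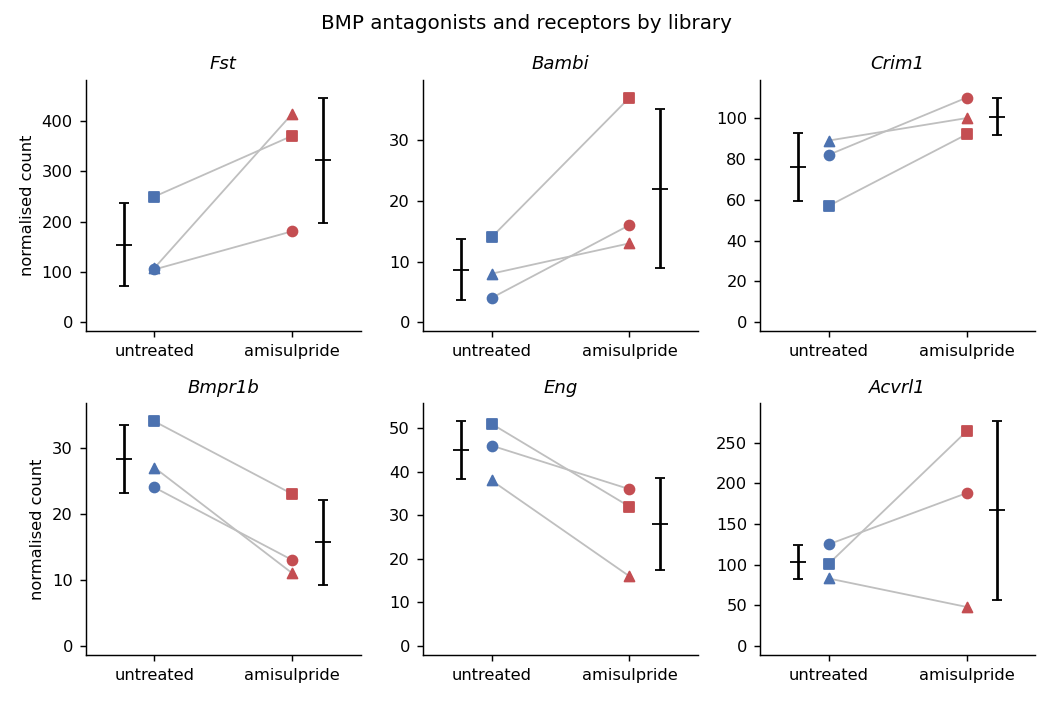
Normalised counts per library of 3 antagonists (top) and 3 receptors (bottom), with symbols, colours and bars as in the plot of the 9 genes. Fst and Bambi overlapped between groups, Crim1 did not, and Acvrl1 was high in amisulpride replicates 1 and 2 (188 and 264) but low in replicate 3 (48).

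None of the 10 tested receptors and co-receptors passed (median log2 fold change 0.04). The type I receptor gene Acvr1 had a log2 fold change of -0.05, the type II receptor gene Bmpr2 of 0.14 and Neo1, whose product binds co-receptors of the repulsive guidance family, of 0.30. Acvrl1, a type I receptor gene best known from vessels, had 125, 101 and 83 normalised counts against 188, 264 and 48. Its log2 fold change was 0.39 ± 0.51 (SE, n = 3 per group). It turned on single libraries, at 1.13 with a limma p of 0.00182 without amisulpride replicate 3, and -0.092 without amisulpride replicate 2.

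Bmpr1b and Eng, both chosen after their values were seen, did not overlap between groups although neither passed. Bmpr1b, another type I receptor gene, had 24, 34 and 27 against 13, 23 and 11 (log2 fold change -0.87 ± 0.42, SE, n = 3 per group), and it passed without amisulpride replicate 2, at -1.16 with a limma p of 0.0255. The co-receptor endoglin (Eng) had 46, 51 and 38 against 36, 32 and 16, a log2 fold change of -0.73 ± 0.38 (SE, n = 3 per group). Endoglin and Acvrl1 are used by endothelial cells as well, and of 10 endothelial markers 1 to 4 were above the floor, summing to 78 to 107 normalised counts in untreated and 27 to 68 in treated libraries. Most of this sum was Egfl7, while Cdh5, Tie1 and Cldn5 were at 0 in every library. The part of endothelial cells in these values was not tested.

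Inside the cell, none of the 12 tested SMAD transducers and regulators passed (median log2 fold change 0.12). Smad4, the partner shared with TGF-β signalling, had a log2 fold change of -0.03 ± 0.26 and the BMP-responsive Smad5 of 0.13 ± 0.26 (SE, n = 3 per group). The phosphatase gene Ppm1a, whose product acts on SMADs, had 0.44, and the corepressor gene Ski had 0.06.

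The inhibitory SMADs pointed in opposite directions, and neither passed. Smad6 (ENSMUSG00000036867, chr9:63953076-64022059, minus strand), which mainly restrains BMP receptors, had 64, 85 and 45 normalised counts against 88, 59 and 104. This gave a log2 fold change of 0.37 ± 0.34 (SE, n = 3 per group; 95% interval -0.36 to 1.11). Smad7 (ENSMUSG00000025880, chr18:75367529-75395935, plus strand), which restrains TGF-β and BMP receptors, had 63, 69 and 54 against 32, 55 and 61. The log2 fold change of -0.37 ± 0.33 (SE, n = 3 per group; 95% interval -1.09 to 0.35) was -0.089 without amisulpride replicate 1, the library with the lowest value. For both genes the groups overlapped, and the limma p was 0.287 for Smad6 and 0.286 for Smad7.

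Of the 4 ID genes, Id4 was higher and the other 3 did not pass. Id4 (ENSMUSG00000021379, chr13:48261427-48264036, plus strand) had 59, 58 and 43 normalised counts in untreated and 152, 119 and 86 in treated libraries. The groups did not overlap, and the log2 differences between libraries of the same number were 1.35, 1.02 and 0.98. In limma it had a log2 fold change of 1.12 ± 0.30 (SE, n = 3 per group; 95% interval 0.45 to 1.79), with a p of 0.00351 and an adjusted p of 0.176. Leaving out untreated replicate 3 gave 0.97 and leaving out amisulpride replicate 1 gave 0.93, both under the threshold, while it was 1.33 when amisulpride replicate 3 was left out. The gene A330033J07Rik, which overlaps Id4 on the opposite strand, was at 0 in all 6 libraries.

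Id1 (ENSMUSG00000042745, chr2:152736251-152737410, plus strand), one of the most direct readouts of BMP signalling in many cells, had 87, 68 and 80 against 122, 84 and 91 normalised counts. Each treated library was higher than the untreated one of its number, but the groups overlapped. The log2 fold change was 0.32 ± 0.28 (SE, n = 3 per group; 95% interval -0.28 to 0.93), with a limma p of 0.267. A change past the threshold lies just outside this interval of the full data. With 1 library left out the estimate lay between 0.16 ± 0.31 (without amisulpride replicate 1) and 0.43 ± 0.32 (without amisulpride replicate 2). The SEs of these fits were larger, so that limit is not taken to hold for them.

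Id2 and Id3 showed more spread between libraries than between groups. Id2 (ENSMUSG00000020644, chr12:25093801-25096092, minus strand) had 142, 92 and 82 against 154, 106 and 73, a log2 fold change of 0.05 ± 0.34 (SE, n = 3 per group; 95% interval -0.69 to 0.79). In both groups replicate 1 was the highest and replicate 3 the lowest. Id3 (ENSMUSG00000007872, chr4:136143497-136145755, plus strand) ranged from 1124 to 3222 in untreated libraries (1124, 3222 and 2033) and was at 2525, 3678 and 1777 in treated ones. Its log2 fold change was 0.39 ± 0.39 (SE, n = 3 per group; 95% interval -0.47 to 1.24), and it was -0.0076 without untreated replicate 1, the library with the lowest value. For Id3 the interval includes the size of the change of Id4, and the difference between the ID genes was not tested.

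Promoter windows were searched because BMP targets are known to carry SMAD motifs. A window of 250 bases before to 50 after the start was given for 6 of the 9 genes (Bmp4, Grem1, Id2, Id3, Id4 and Smad6; RefSeq, GRCm38.p6). The motifs sought were the GC-rich GGCGCC linked to SMAD1 and SMAD5 and the SMAD palindrome GTCTAGAC, and each reads the same on both strands. GGCGCC was found in 11.9% of all 32851 windows and, in this set, in those of Grem1 (bases -78 to -73 from the start), Id2 (-231 to -226) and Id4 (-148 to -143). GTCTAGAC was found in 0.213% of all windows and, in this set, in that of Smad6, across the start itself (-4 to 4). So the motifs were found in windows of genes that passed and of genes that did not. Positions are counted from the RefSeq start used for each window. For Id4 this start differs from that of the expression table. The bases shown for Id4 end at 48261115, whereas the gene starts at 48261427 in that table, so they do not adjoin it. The bases upstream of Id4, which was higher, and of Smad6, with the rarer motif, are shown with the motif in capitals (5′ to 3′; Id4 chr13:48260866-48261115, plus strand; Smad6 chr9:64022056-64022309, minus strand).
Id4: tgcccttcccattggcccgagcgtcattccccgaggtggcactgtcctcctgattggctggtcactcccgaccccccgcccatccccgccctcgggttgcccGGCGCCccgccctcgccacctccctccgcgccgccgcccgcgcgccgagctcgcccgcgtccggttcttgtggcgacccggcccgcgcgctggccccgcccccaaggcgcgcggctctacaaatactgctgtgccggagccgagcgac
Smad6: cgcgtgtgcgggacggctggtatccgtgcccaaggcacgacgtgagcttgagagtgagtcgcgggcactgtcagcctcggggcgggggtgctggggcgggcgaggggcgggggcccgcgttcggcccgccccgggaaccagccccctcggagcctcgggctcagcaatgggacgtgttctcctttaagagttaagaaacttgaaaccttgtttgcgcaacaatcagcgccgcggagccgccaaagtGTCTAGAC

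Further BMP targets and the partners of ID proteins did not pass either. Of 11 other target genes 5 were tested, with a median log2 fold change of 0.31. The skeletal transcription factor gene Runx2 had 0.31, the kinase gene Bmp2k 0.32, and the homeobox genes Msx1 and Msx2 had 0.03 and -0.47. Atoh8, chosen after its values were seen, is a bHLH gene induced by BMPs in vessels and liver and had 22, 11 and 13 against 39, 39 and 13 normalised counts. Its log2 fold change was 0.85 ± 0.51 (SE, n = 3 per group), or 1.35 with a limma p of 0.00936 without amisulpride replicate 3. Of 9 bHLH genes whose products pair with ID proteins or with their partners 7 were tested, with a median of 0.14. The E protein genes Tcf4 and Tcf12 had log2 fold changes of 0.14 and 0.38, Twist1, a mesenchymal factor, had 0.14, and Scx, a tendon factor, had 0.49. The rest of those tested had lower means and were named after their values were seen. Twist2 had 0.42, the E protein gene Tcf3 had -0.52 and Hand2 had -0.82, and none of them passed.

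**Figure D3:**
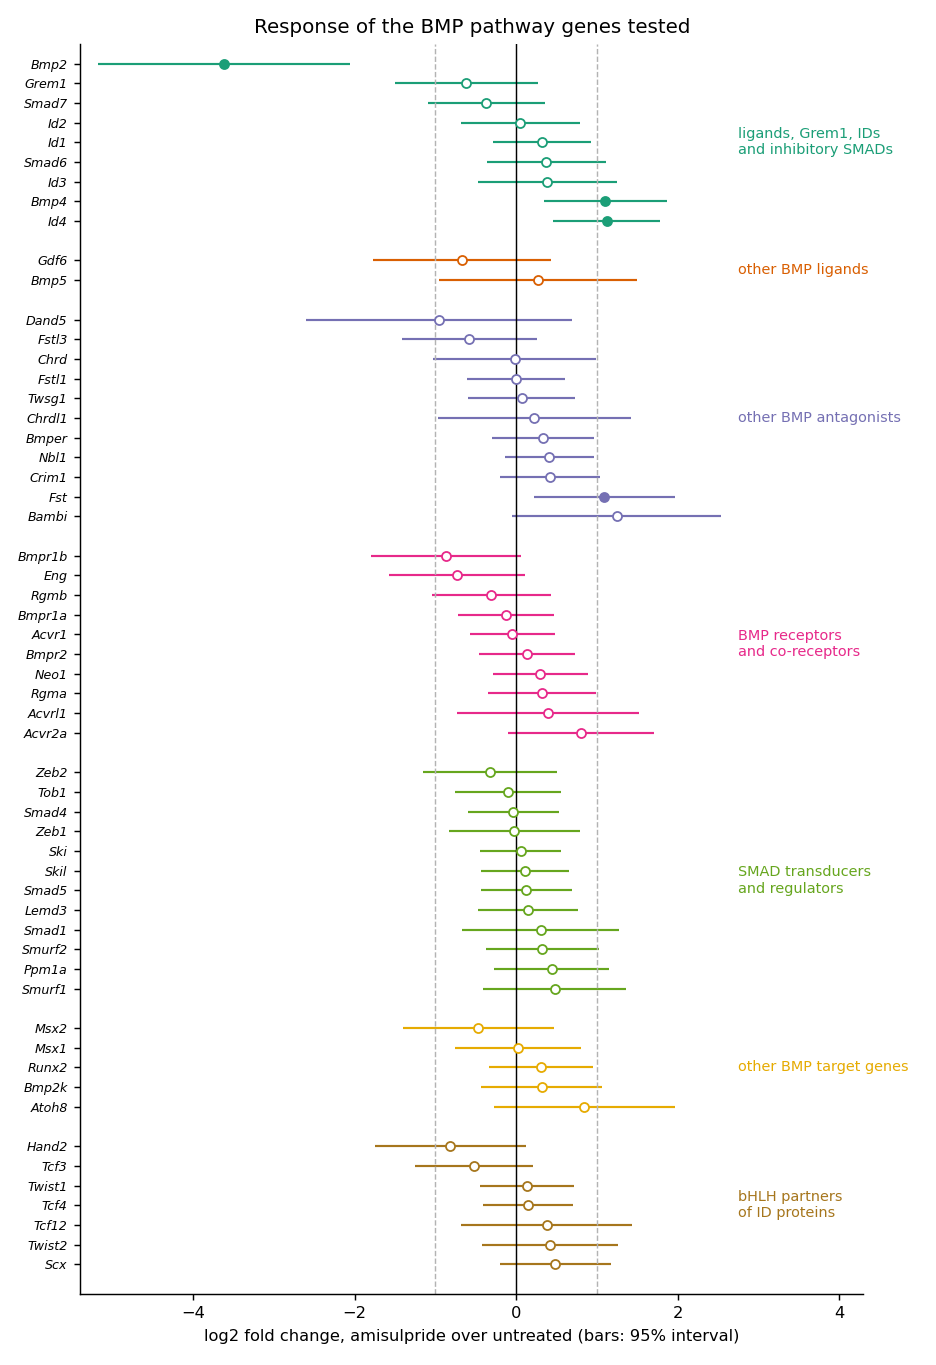
Log2 fold changes (amisulpride over untreated) of the 9 genes and the 47 other pathway genes tested, grouped by role, with 95% intervals from limma. Filled points passed the study thresholds, whose fold limits are the dashed lines. Bmp2, Bmp4, Id4 and Fst are filled, and the intervals of all other genes cross 0.

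Taking the 6 lists beside the 9 genes as a whole, 47 of 73 genes were tested. Of these 1 was higher (Fst), against 2.69% of all genes tested, 0 were lower, against 3.01%, and 46 did not pass. Their median log2 fold change was 0.14, and 30 estimates were above 0 and 17 below, where 49.9% of all genes tested were below. Groups did not overlap for 3 of the 47 (Crim1, Bmpr1b and Eng), beside 16.5% of all genes. The 26 genes under the filter reached at most 21 normalised counts in any library, and 10 of them were at 0 in all libraries.

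Summed markers of mural cells did not overlap between the groups, and neither did the endothelial sums given above, while those of cartilage, bone and muscle did. Of 8 mural markers 4 to 5 were above the floor, and they summed to 5378 to 9784 normalised counts in untreated and 1442 to 4824 in treated libraries. This sum was mostly Acta2, the smooth muscle actin gene that activated fibroblasts also express, at 6413, 5030 and 9384 against 2714, 1253 and 4586, while Myh11, Abcc9 and Kcnj8 were at or under 2 in every library. Mcam was lower as well, at 112, 122 and 184 against 53, 47 and 57. Cspg4 (76, 83 and 31 against 60, 55 and 93) and Notch3 (50, 132 and 175 against 145, 79 and 86) overlapped between groups. Of 11 chondrocyte and osteoblast markers 2 to 6 were above the floor, summing to 623 to 1333 and 826 to 1629, mostly Comp (1003, 675 and 303 against 1051, 756 and 571) and Sox9 (249, 249 and 274 against 557, 289 and 233), with Col9a1 at 0 throughout. Of this list Alpl, an alkaline phosphatase gene of osteoblasts singled out after its values were seen, had 63, 21 and 28 against 8, 4 and 5. Sp7, Bglap, Ibsp and Dmp1 of the same list were at or under 6 in every library, with Sp7 at 4, 2 and 4 against 6, 1 and 4. A change of the list as a whole is therefore not read from Alpl. Of 8 skeletal muscle markers 1 to 3 were above the floor, summing to 20 to 49 and 13 to 37, with Myod1, Myh1 and Pax7 at 0. The part of these cells in the changes of Bmp2, Bmp4 and Id4 was not tested.

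Fold changes of Bmp2, Bmp4 and Id4 were compared over 13 alternative analyses. Bmp2 passed the study thresholds in all 13, with log2 fold changes from -3.98 to -2.15. All of these but the fit with no filter kept the filter that Bmp2 passed through its untreated libraries alone. Bmp4 (0.73 to 1.45) and Id4 (0.93 to 1.33) passed in 11 of 13. Without amisulpride replicate 3, the library that stood apart, Bmp2 had -3.98 with an adjusted p of 0.0192 (limma). When any other library was left out, the adjusted p of Bmp2 in limma was higher than in the full data, at 0.271, 0.279 and 0.383 without untreated replicates 1, 2 and 3, and 0.111 and 0.127 without amisulpride replicates 1 and 2.

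**Figure D4:**
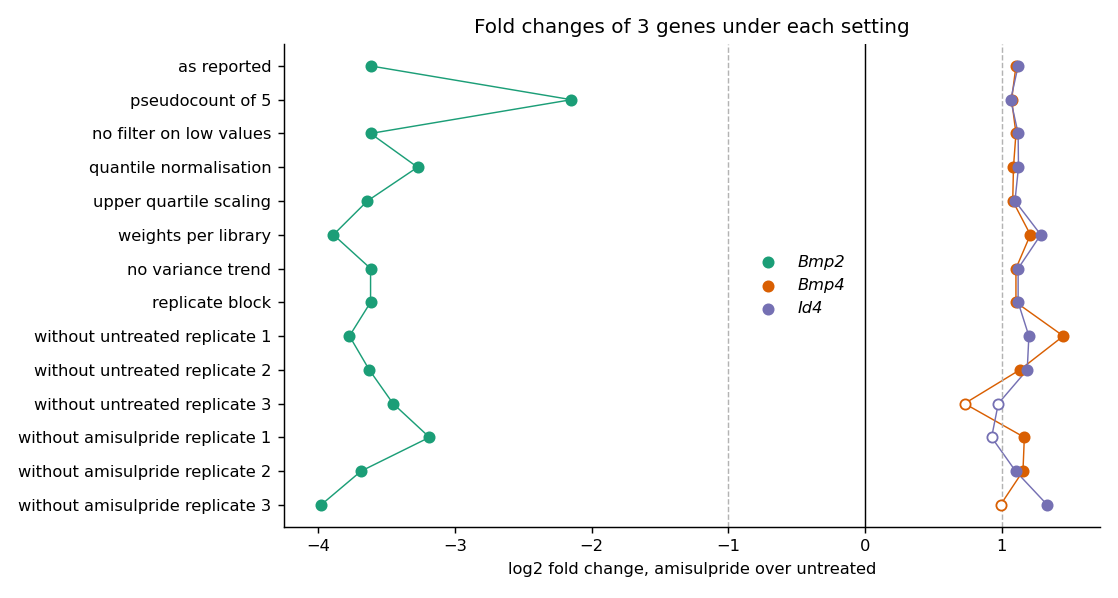
Log2 fold changes (amisulpride over untreated) of Bmp2, Bmp4 and Id4 as reported and under 13 alternatives, listed on the vertical axis. Filled points passed the study thresholds, whose fold limits are the dashed lines. Bmp2 stays below -1 throughout, whereas Bmp4 and Id4 lie close to 1 and are open in 2 alternatives each.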

How the data were processed

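Gene expression was measured by 3′ mRNA sequencing (QuantSeq, Ion Proton) in 3 untreated and 3 amisulpride-treated hTNFtg SF libraries. The authors mapped reads to mm10 with TopHat2 and, for unmapped reads, Bowtie2, counted them with GenomicRanges, normalised the counts and tested them with DESeq, after removal of genes without reads, through metaseqr. The method of normalisation was not given in the sources used here. Tool versions and the use of strand in counting were not given in the sources used here. The deposited values are a score, namely the authors' normalised counts rounded to whole numbers, so no count model was run. Columns with the authors' own comparison (fold changes and p-values) and 12 other columns of values per library were not used.

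The test was limma's moderated one (limma 3.58.1, R 4.3.3), two-sided, with a variance trend, on log2(value + 1). It covered 12614 of 49548 genes, those that reached 10 in 3 or more of the 6 libraries, and the Benjamini-Hochberg adjustment ran over all 12614. An exact test of 3 against 3 libraries cannot reach p = 0.05 and was not used.

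Because values are rounded multiples of 1 read, reads per library were estimated from the spacing of low values, and for untreated replicate 1 this was uncertain. The exact interval of the Bmp2 read ratio and the floors (3 reads) cover counting error only, whereas the limma intervals rest on the spread between libraries.

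Libraries with the same replicate number tended to deviate together. Across genes, deviations from the group means correlated at 0.229, 0.240 and 0.201 between same-numbered libraries and at -0.149 to -0.0777 otherwise. A pairing by number is read from these values only and is stated neither in the labels nor in the methods, so the main fit has no block.

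The 9 genes and the lists around them were chosen with earlier results of these data known. Named genes are the 9, every listed gene past the study thresholds, and up to 4 per list with the highest mean. All others were named after their values were seen. A gene left out of the antagonist list is not reported here. In transcript ends, 31-base words shared with other genes made up 2.83% for Bmp4 and 0% for the other 8 genes. The shared words of Bmp4 were spread over transcripts of 1433 other genes, and their part in the Bmp4 counts was not tested. Alternatives were a pseudocount of 5, no filter, quantile or upper quartile scaling, library weights, no variance trend, the replicate block and leaving out each library.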

Additional observations from a re-analysis of the deposited data

How the results depend on the processing

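Over all genes, 719 passed the study thresholds (606 to 1034 when 1 library was left out), and 1313 did with no filter on low values, where 22775 genes were tested. The number with an adjusted p under 0.05 was 36, and it was 57 with a pseudocount of 5, 57 with no filter, 263 with the replicate block, 195 with weights per library and 66 with quantile normalisation. When 1 library was left out, it was 0 to 120, with 0 without untreated replicate 2 or 3, where 1129 and 957 genes had an unadjusted limma p under 0.05. Of the 9 genes 1 to 3 passed when 1 library was left out (1 without untreated replicate 3), and of the other pathway genes 0 to 3 did, against 1 (Fst) in the full data. These were 0 without untreated replicate 1 or 3, 2 without untreated replicate 2 (Fst and Bambi), 1 without amisulpride replicate 2 (Bmpr1b), and 3 without amisulpride replicate 1 (Fst, Acvr2a and Hand2) or 3 (Bambi, Acvrl1 and Atoh8). There were 2 with no filter (Fst and Nog), 2 with weights per library (Bambi and Atoh8), and 2 (Fst and Bambi) with quantile normalisation, with no variance trend and with the replicate block.

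The block ended no call, let Bambi pass the study thresholds and brought Bmp2, but no other of these genes, under an adjusted p of 0.05, and with library weights Id4 (0.0356) was under it too. Of the comparisons of the 9 genes with the alternatives 109 kept direction and call, 4 lost the call and 4 changed sign, and for the named pathway genes these numbers were 252, 5 and 28, with 1 gained. None of the estimates that changed sign passed in the full data, where they lay between -0.47 (Msx2) and 0.39 (Acvrl1). With 1 library left out, Id2 ranged from -0.22 to 0.32, Id3 from -0.0076 to 0.75, Bmp5 from -0.053 to 0.72, Fstl1 from -0.11 to 0.16, Acvr1 from -0.12 to 0.083, Bmpr2 from -0.071 to 0.27, Acvrl1 from -0.092 to 1.13 and Ski from -0.030 to 0.13. Smad4 ranged from -0.24 to 0.090, Smad5 from -0.013 to 0.25, Msx2 from -0.72 to 0.014, Msx1 from -0.19 to 0.20, Tcf4 from -0.0087 to 0.31, Twist1 from -0.039 to 0.34 and Tcf12 from -0.14 to 0.77. With weights per library, Fstl1 was 0.093, Bmpr2 -0.045, Smad4 0.015, Smad5 -0.0087 and Tcf12 -0.15. The cause of these changes was not tested.

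Of the scalings, upper quartile scaling moved the median of all genes most, to -0.022 log2 units. Depth limits Bmp2, whose treated libraries held 0 to 1 reads, and genes under the filter such as Nog.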
